A study of Mus musculus with 5 samples.

Results

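Fatty acids enter and cross a fat cell with the help of 2 groups of proteins, and 10 genes that encode them were followed here in mouse 3T3-L1 adipocytes kept with or without human myeloma cells. The genes were taken from a list written for this work: the cytosolic fatty acid binding proteins Fabp3, Fabp4 and Fabp5, the surface receptor Cd36, the transport proteins Slc27a1, Slc27a2, Slc27a3, Slc27a4 and Slc27a6, and Got2. Each was read by the probe set that carries its symbol alone in the platform annotation. All 10 of 10 were found with 1 probe set each, among 22206 probe sets of which 19572 had a single symbol.

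3T3-L1 is a mouse fibroblast line that turns into fat cells in culture. Per the labels, all cells had 4 days in basal medium, then 4 days with 5 µg/mL insulin, 1 µM dexamethasone (Dex) and IBMX at 0.5 mM, 2 days with insulin only and 1 day in basal medium. They then spent 72 h in RPMI-1640 with 10% FBS and penicillin/streptomycin. In the 3 exposed samples, titled Mature-Myeloma, MM.1S cells, a human multiple myeloma line, sat in the same medium behind a transwell membrane with 0.4 µm pores. The 2 control samples, titled Mature-Control, had the medium alone. One Affymetrix Clariom S array was run per sample, and the comparison asks how sharing medium with myeloma cells goes with adipocyte transcripts. The controls had no other cells, so factors secreted by myeloma cells and other effects of added cells on the medium cannot be told apart. The labels call the samples replicates without naming separate cultures, so each p-value reflects only how much these 5 samples vary, and that variation may be technical. The whole culture gave the RNA, so fewer adipocytes and less RNA per adipocyte cannot be told apart.

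A long-chain fatty acid released from lipoproteins is bound at the cell surface by CD36, a glycoprotein that concentrates in caveolae. FATP proteins, encoded by the Slc27 genes, combine transport with acyl-CoA synthetase activity, and attaching coenzyme A traps the fatty acid inside the cell. FABP proteins are small cytosolic carriers that hold a fatty acid in a barrel-shaped pocket and bring it to enzymes, to lipid droplets or to nuclear receptors. In adipocytes Fabp4, also known as aP2, is a classic target of the nuclear receptor PPARγ and a late marker of differentiation.

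Promoter sequence is shown for the 3 members on which the description of array differences turns: Cd36, the surface receptor, Slc27a4, whose values spread most among the brighter members, and Slc27a1, the one member whose groups did not overlap. All exposed arrays lay below both controls for Slc27a1, as for 8.84% of all probe sets. The windows are the 250 bases before the annotated start in RefSeq (GRCm38.p6), written 5′ to 3′ along the gene, with matches to any of the searched motifs in capitals.
Cd36, chr5:17835897-17836146, minus strand: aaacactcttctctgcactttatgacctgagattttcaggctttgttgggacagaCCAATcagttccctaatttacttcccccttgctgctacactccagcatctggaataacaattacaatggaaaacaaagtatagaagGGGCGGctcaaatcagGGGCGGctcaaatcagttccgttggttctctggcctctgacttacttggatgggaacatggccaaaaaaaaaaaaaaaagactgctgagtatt
Slc27a4, chr2:29802384-29802633, plus strand: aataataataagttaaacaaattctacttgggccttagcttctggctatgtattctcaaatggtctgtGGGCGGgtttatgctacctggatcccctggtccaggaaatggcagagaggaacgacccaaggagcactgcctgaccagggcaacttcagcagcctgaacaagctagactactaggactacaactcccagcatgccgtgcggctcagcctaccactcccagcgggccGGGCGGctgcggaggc
Slc27a1, chr8:71570344-71570593, plus strand, the last of its 3 annotated windows: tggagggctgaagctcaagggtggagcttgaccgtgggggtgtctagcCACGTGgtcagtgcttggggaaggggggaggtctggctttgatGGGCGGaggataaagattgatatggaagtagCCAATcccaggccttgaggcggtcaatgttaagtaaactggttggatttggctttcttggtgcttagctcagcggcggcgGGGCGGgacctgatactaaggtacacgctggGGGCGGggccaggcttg

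Promoter windows of 7 of the members were used (9 windows, 3 of them of Slc27a1). Windows on chromosome 18, where Slc27a6 lies, were left out, and none was at hand for Fabp4 and Fabp5. Both strands were searched for 5 motifs, and no motif overlapped another in the 3 windows shown. The CCAAT box (CCAAT) occurred in 33.8% of all 32851 annotated mouse promoter windows of that length, the GC box (GGGCGG) in 32.7%, the TATA box (TATAAA) in 12.4%, the E-box (CACGTG) in 6.02% and the direct repeat bound by PPAR and RXR receptors (AGGTCA, any base, AGGTCA) in 0.0335%. The Cd36 window held 1 CCAAT box whose first base lies 195 bases before the start, and GC boxes at 109 and 93 bases. The Slc27a4 window held GC boxes at 182 and 16 bases. The Slc27a1 window held a CCAAT box at 128 bases, an E-box at 202 bases and GC boxes at 159, 48 and 17 bases. The other Slc27a1 windows held a CCAAT box at 188 bases in the first and a GC box at 139 bases in the next. Of the other members, Slc27a2 had 2 GC boxes, Slc27a3 had 2 GC boxes and a CCAAT box at 194 bases, Got2 had 1 TATA box on the reverse strand, and the Fabp3 window held none of the 5. Among the windows used, Cd36 stood apart in composition, with 3 CpG dinucleotides and 43.2% G and C. The other windows used held 8 to 19 CpG and 54.4% to 66.4% G and C. The median of all windows was 6 CpG and 52.4%. A match is a string of letters and not a shown binding site.

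Array medians were between 4.80 and 4.88 on the log2 scale. Every difference below rests on 3 exposed and 2 control arrays, and its precision also depends on the spread of the values. Of the adipocyte markers, 11 of 12 were measured, with array means of 8.44 to 8.60 in the exposed and 8.59 to 8.62 in the control group. Adipoq, the adiponectin gene, was at 11.39, 11.58 and 11.73 on exposed arrays 1 to 3 and at 11.55 and 11.61 on control arrays 1 and 2. Macrophages and endothelium also make Cd36, Fabp4 and Fabp5, although the labels name no such cells in these cultures. The 10 measured macrophage markers averaged 3.70 to 3.83 on exposed and 3.66 to 3.88 on control arrays. Of these 2 lay above the median level of all probe sets, 4.81, Cd14 at a mean of 6.63 and Lyz2 at 5.02, and Adgre1 was at 2.82. The 8 endothelial markers averaged 3.08 to 3.19 on exposed and 3.20 to 3.21 on control arrays. Of these 1, Flt1, lay above the median level at 5.49, and Cdh5 was at 2.77. The part of such cells in the values below was not tested. Preadipocyte and fibroblast markers, 9 measured, averaged 7.59 to 7.63 on exposed and 7.70 to 7.75 on control arrays. Of these 7 lay above the median level, with Dlk1 the brightest at a mean of 10.45. In mean 8 were lower and 1 higher on exposed arrays, beside 9 lower and 2 higher of the adipocyte markers. The part of preadipocytes and fibroblasts was not tested either. Individual arrays also stood apart: exposed array 1 was at least 0.5 above all other arrays at 568 probe sets and exposed array 3 at 441, against 117 for exposed array 2, 127 for control array 1 and 307 for control array 2.

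None of the 10 members differed between exposed and control arrays by the test. With limma and Benjamini-Hochberg adjustment over all 22206 probe sets, 0 members passed an adjusted p of 0.05, where the background was 0% of all probe sets, and the smallest adjusted p among members was 0.93. At an unadjusted p under 0.05 there were 0 members, against 3.49% (776) of all probe sets. In mean, 5 members were higher and 5 lower on exposed arrays, with a median difference of -0.020, beside -0.00040 over all probe sets. The median size of the difference was 0.13 for the members and 0.13 for all probe sets. The 95% interval excluded a 2-fold difference in either direction for all 10, as it did for 92.9% of all probe sets.

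**Figure D1:**
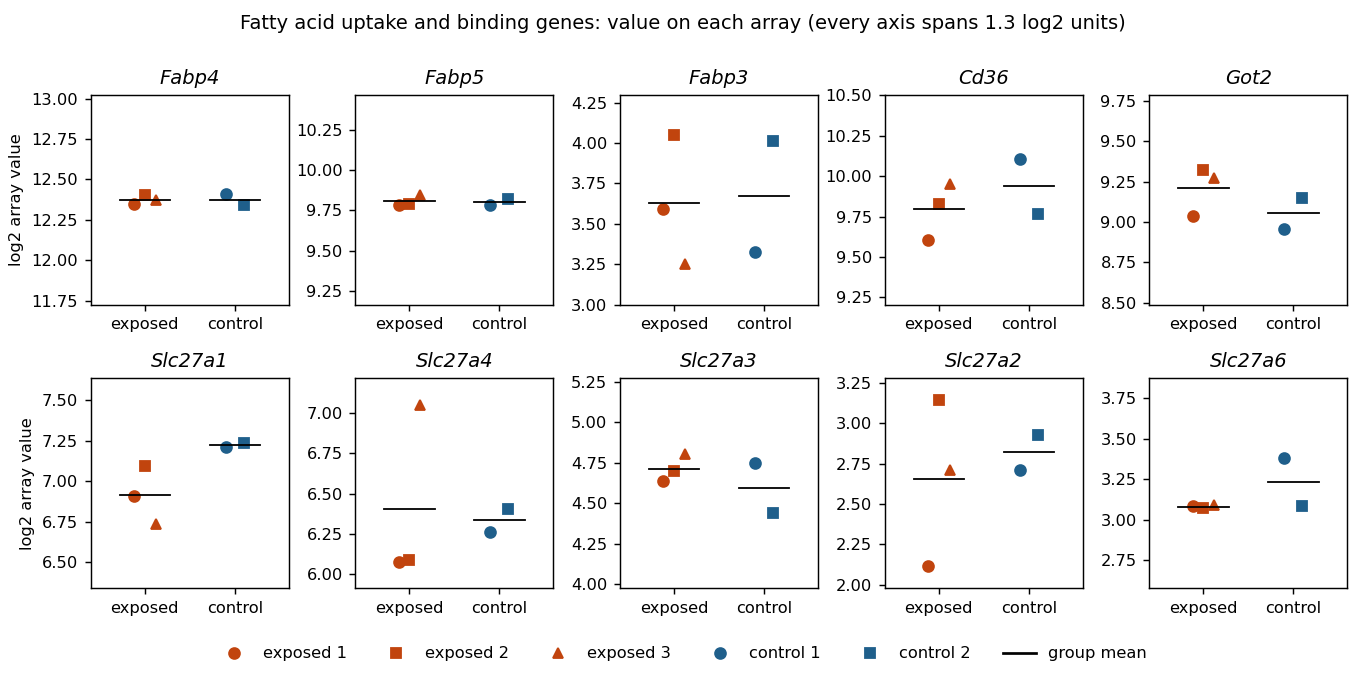
Log2 array value of each gene (vertical axes, each spanning 1.3 log2 units around the gene's own values) on 3 exposed and 2 control arrays; symbols mark the replicate and bars the group mean. Fabp4 and Fabp5 lie almost on 1 line, and Slc27a4 has 1 high exposed array at 7.05. Slc27a1 is the only gene whose groups do not overlap, with exposed arrays below both controls as for 8.84% of all probe sets.

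The binding proteins of fat cells, Fabp4 and Fabp5, were the steadiest members. Fabp4, the main fatty acid carrier of adipocytes, was at 12.35, 12.40 and 12.37 on exposed arrays 1 to 3 and at 12.41 and 12.34 on control arrays 1 and 2. The 5 values covered 0.072 log2 units, and the exposed arrays lay inside the span of the controls. The difference was 0.00018, with a 95% interval of -0.29 to 0.29, or a fold of 0.819 to 1.22. Fabp4 was brighter than 99.8% of probe sets and close to the highest value in the table, 13.2, where an array can compress differences. The 89 probe sets within 0.5 of its level had a median range of 0.13 over the 5 arrays, and 22.5% of them had a smaller range than Fabp4.

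Fabp5, a carrier first known from the epidermis that adipocytes and macrophages also make, was at 9.79, 9.79 and 9.85 on exposed arrays and at 9.79 and 9.82 on control arrays. Its groups overlapped, and exposed array 1 and control array 1 held the same value. The difference was 0.0047 (-0.28 to 0.29, SE 0.12), a fold of 0.822 to 1.22. Only 1.53% of the 653 probe sets of like level had a smaller range than the 0.062 of Fabp5. The limma interval is wider than the spread of either gene's own values. Both the small number of arrays and an estimate of spread shared with all probe sets widen it.

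Fabp3, the carrier of heart and skeletal muscle, was dim and spread widely. It was at 3.59, 4.05 and 3.25 on exposed arrays and at 3.33 and 4.01 on control arrays. In each group 1 array lay near 4 and another near 3.3, so the groups overlapped fully, and the difference was -0.040 (-0.76 to 0.68). Leaving out single arrays moved the difference between -0.38 and 0.30. Its level was below the median of all probe sets, 4.81, where RMA compresses differences and where the table carries no detection call. The 10 skeletal muscle markers averaged 3.61 to 3.78 on exposed and 3.53 to 3.63 on control arrays, and 1 of them, the myoglobin gene Mb, was above that median, at 4.85 with a difference of 0.31.

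In the mouse genome Fabp5, Pmp2, Fabp9, Fabp4 and Fabp12 are consecutive protein-coding genes of chromosome 3, by order in RefSeq. The 3 neighbours were dim on these arrays: Pmp2, a myelin carrier, had a mean of 2.22, Fabp9, a testis carrier, 3.18, and Fabp12 2.57. Bright values within the cluster were thus those of Fabp4 and Fabp5 (means 12.37 and 9.81), although values of different probe sets depend on their probes and do not rank the transcripts.

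Cd36, the fatty acid receptor at the surface, was bright in both groups. Its values were 9.60, 9.83 and 9.95 on exposed arrays and 10.11 and 9.77 on control arrays. Control array 1 was the highest and exposed array 1 the lowest, while the other 3 arrays lay between them and the groups overlapped. The difference was -0.14 (-0.56 to 0.28), a fold of 0.907 with bounds of 0.679 and 1.21, and limma's adjusted p was 0.94. Without control array 1 it was 0.027. Its range of 0.50 was wider than that of 84.7% of the 614 probe sets of like level.

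Got2 encodes the mitochondrial aspartate aminotransferase, which is also described at the cell surface as a fatty acid binding protein. It was at 9.04, 9.32 and 9.27 on exposed arrays and at 8.96 and 9.15 on control arrays. Exposed arrays 2 and 3 were above both controls, whereas exposed array 1 lay between the controls, so the groups overlapped. The difference was 0.16 (-0.20 to 0.52), with an adjusted p of 0.93 by limma, and it stayed above 0 with any single array left out (0.060 to 0.25).

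Among the transport proteins, Slc27a1 was the one member whose exposed arrays all lay on one side of the controls. Slc27a1 (FATP1), the transporter that insulin brings to the adipocyte surface, was at 6.91, 7.09 and 6.74 on exposed arrays and at 7.21 and 7.24 on control arrays. The controls were 0.025 apart, and the exposed arrays spanned 0.36, more than the difference of means. That difference was -0.31 (-0.67 to 0.051), a fold of 0.806 with bounds of 0.627 and 1.04, with an unadjusted p of 0.081 and an adjusted p of 0.93 by limma. All exposed arrays lay below both controls for 1 of the 10 members, beside 8.84% of all probe sets, and above both controls for 0, beside 8.5%. With single arrays left out the difference was between -0.40 and -0.22.

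Slc27a4 (FATP4), a transporter best known from intestine and skin, had the widest range of the 6 members above the median level. It was at 6.08, 6.09 and 7.05 on exposed arrays and at 6.26 and 6.41 on control arrays. Exposed array 3 was 0.64 above the next array, control array 2, and exposed arrays 1 and 2 lay below both controls. The mean difference was 0.073 (-0.69 to 0.84, SE 0.31), and without exposed array 3 it was -0.25 with an unadjusted p of 0.11 and an adjusted p of 0.88 by limma. It was also below 0 without control array 1 (-0.00093) and with array weights (-0.014), so the sign of the Slc27a4 difference was not stable. Among 2784 probe sets of like level, 94.3% had a smaller range.

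**Figure D2:**
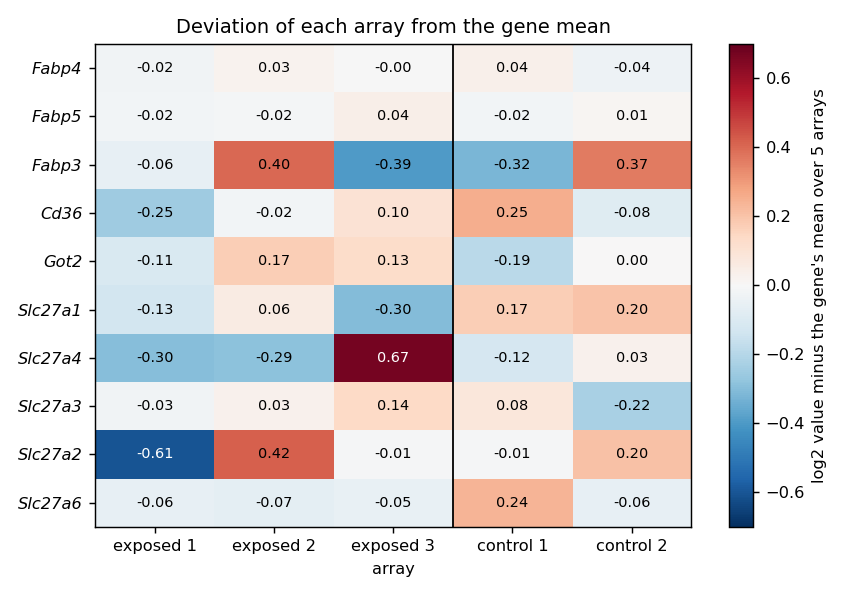
Log2 value of each gene on each array minus the gene's mean over the 5 arrays (colour and printed number), with exposed arrays left and control arrays right of the line. The widest deviations are those of Slc27a4 on exposed array 3 (0.67) and Slc27a2 on exposed array 1 (-0.61), each on a single array.

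The other transport proteins were dim. Slc27a3 (FATP3), an acyl-CoA synthetase of the same family, was at 4.64, 4.70 and 4.80 on exposed arrays and at 4.75 and 4.44 on control arrays. Control array 2 was the lowest and the groups overlapped, with a difference of 0.12 (-0.24 to 0.48). Slc27a2 (FATP2), a transporter and very-long-chain acyl-CoA synthetase of liver and kidney, was at 2.12, 3.14 and 2.71 on exposed arrays and at 2.71 and 2.93 on control arrays. Exposed array 1 was 0.60 below the next lowest value, which exposed array 3 and control array 1 shared, and exposed array 2 was the highest. The Slc27a2 difference was -0.16 (-0.89 to 0.56), and without exposed array 1 it was 0.11. Slc27a6 (FATP6), a transporter known chiefly from human heart, was at 3.08, 3.07 and 3.09 on exposed arrays and at 3.38 and 3.08 on control arrays. Control array 1 alone was high, and the difference of -0.15 (-0.49 to 0.19) was -0.0018 without it. Slc27a5 (FATP5), a liver member outside the 10, was dim as well, with a mean of 2.97 and a difference of 0.12.

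**Figure D3:**
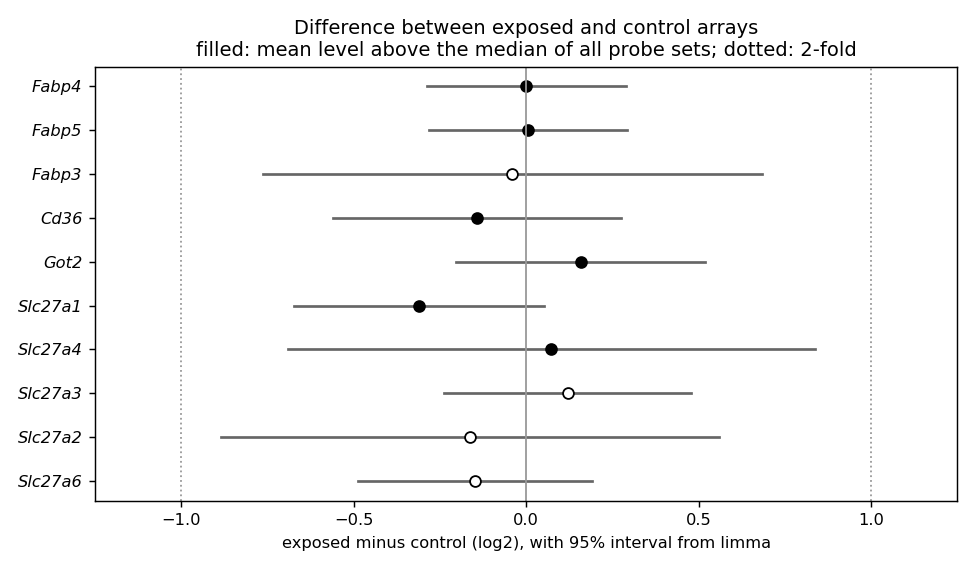
Exposed minus control difference of each gene on the log2 scale (horizontal axis, points) with limma's 95% interval (lines); filled points are genes above the median level of all probe sets, dotted lines mark 2-fold. Every interval includes 0 and none reaches a 2-fold difference; Slc27a1 lies farthest from 0 at -0.31.

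Across arrays the members did not move as a block. Exposed array 1 alone was the lowest of the 5 for 3 members (Cd36, Slc27a2 and Slc27a4), shared the lowest Fabp5 value with control array 1, and was the highest for 0. Exposed arrays 2 and 3 and control array 1 were each the highest for 3 members and control array 2 for 1. The median deviation of the 10 members from their own means was -0.084, 0.029 and 0.021 on exposed arrays 1 to 3 and 0.013 and 0.0084 on control arrays 1 and 2. The 2 arrays closest to each other over the 10 members were exposed array 2 and control array 2, from different groups, with a root-mean-square difference of 0.16. The farthest were exposed arrays 2 and 3, of the same group, at 0.44. Over all probe sets the closest were exposed array 2 and control array 1 (0.28) and the farthest exposed arrays 1 and 3 (0.39).

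The genes with profiles nearest to Slc27a4 and Fabp4 were found by the root-mean-square difference of mean-centred values over the 5 arrays, among 10024 single-symbol probe sets above the median level. For Slc27a4 they were Mcrip1 (0.040), Tmem243 (0.053) and Med8 (0.054), and each of them was highest on exposed array 3 (8.71, 6.72 and 8.33). For Fabp4 they were the ribosomal protein gene Rps20 (0.0094), the cytochrome c oxidase subunit gene Cox6c (0.013) and the phosphatase subunit gene Ppp6r2 (0.013), whose values also varied by less than 0.1 over the arrays. How many profiles would come this close over 5 arrays was not tested, and likeness is a description of the arrays.

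**Figure D4:**
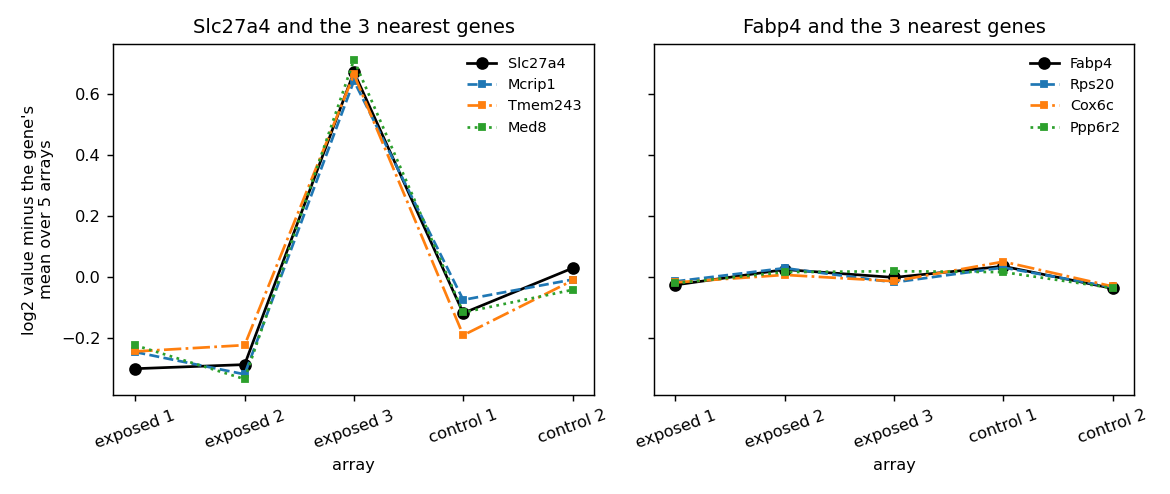
Log2 values minus each gene's mean over the 5 arrays (vertical axis) for Slc27a4 (left) and Fabp4 (right), black, with the 3 genes of nearest profile. Slc27a4 and its 3 nearest genes peak on exposed array 3, and Fabp4 with its 3 nearest genes stays within 0.06 of its mean.

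Around uptake and binding, 10 further lists of fatty acid handling held 117 measured genes of 128, and 0 passed the test in either direction. Of these 54 were higher and 63 lower in mean, with a median of -0.012, and 5 (4.27%) had an unadjusted p under 0.05, beside 3.49% of all probe sets. In the wider family of fatty acid and retinoid carriers 8 of 11 were higher and 3 lower (median 0.12), at a mean level of 3.09. Fabp2, the intestinal carrier, was at 2.72, 2.54 and 2.42 against 2.15 and 2.19, and Fabp12 differed by 0.26. The brightest of that list, the retinoic acid carrier Crabp2, differed by 0.21 (-0.33 to 0.74). Acyl-CoA synthetases, which activate fatty acids as FATP proteins do, were 7 higher and 6 lower (median 0.0073). Among them Acsl4 was the brightest with a difference of -0.0061, and Acsbg2 and Acsm3 differed by 0.35 and 0.31 at low levels. Acsl1 and Acsl3 were not analysed here.

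Genes upstream of uptake also gave no call. Lpl, the lipoprotein lipase that frees fatty acids for CD36, was at 12.16, 12.06 and 12.13 on exposed and 12.18 and 12.05 on control arrays, and its interval was -0.31 to 0.30. In the lipoprotein list 6 were higher and 7 lower (median -0.0045), with the lipoprotein receptor gene Vldlr at -0.28 and Apoe at 0.22. A mixed list around CD36 held caveolins, cavins, palmitoylating and depalmitoylating enzymes, and Fyn, Slc2a4, Pxn and Ehd2. Its genes were 2 higher and 11 lower (median -0.088). Their array means were 6.86 to 6.89 on exposed and 6.98 to 6.99 on control arrays, and no list was tested as a set. In that list the depalmitoylating enzyme gene Lypla1 was at 6.99 and 6.53 on exposed arrays 1 and 2 and at 7.51 on both control arrays, while exposed array 3 lay above the controls, and its mean difference was -0.34. Cavin2 differed by -0.29 and Cav2, the brightest of the list, by -0.011. Receptors for free fatty acids and related metabolites were 3 higher and 4 lower (median -0.020). Gpr84, a receptor of medium-chain fatty acids, was at 2.55, 2.20 and 3.09 on exposed and 3.82 and 3.39 on control arrays, a difference of -0.99 (-1.69 to -0.30) at a dim level that did not pass (adjusted p 0.93 by limma). Ffar3 differed by 0.20 and Ffar2, the brightest receptor gene of the list, by 0.15.

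Genes downstream of uptake were likewise split. Acyl-CoA binding proteins and thioesterases were 7 higher and 6 lower (median 0.061), with the peroxisomal thioesterase gene Acot8 at 0.41 and Acbd5 at -0.26. Dbi, the acyl-CoA binding protein, was the brightest of them and differed by 0.13 (-0.20 to 0.45). Lipolysis, esterification and carnitine transfer genes were 8 higher and 7 lower (median 0.019). Gpat3, the main glycerol-phosphate acyltransferase of adipocytes, was at 7.14, 6.78 and 7.14 on exposed arrays and at 6.53 and 6.51 on control arrays. All exposed arrays lay above both controls for Gpat3, as for 7 of the 117 list genes, with 10 below both. The shares of all probe sets were 8.5% above and 8.84% below. The Gpat3 difference of 0.50 (0.11 to 0.89) had an unadjusted p of 0.020 and an adjusted p of 0.93 by limma. The carnitine carrier gene Slc25a20 differed by 0.28 and Pnpla2, the first lipase of fat breakdown, by 0.077. In the malate-aspartate shuttle, where Got2 works in the mitochondrion, 3 were higher and 5 lower (median -0.044). Array means of these genes were 8.54 to 8.66 on exposed and 8.67 to 8.69 on control arrays, without overlap, as in the list around CD36. Means of the endothelial markers and of the preadipocyte and fibroblast markers also lay lower on all exposed arrays. How often list means separate in this way was not tested. The oxoglutarate carrier gene Slc25a11 was at 7.95, 8.45 and 8.33 against 8.73 and 8.60, and the aspartate-glutamate carrier gene Slc25a12 differed by -0.41. Mdh2, a malate dehydrogenase and the brightest of the list, differed by -0.022. Other lipid carriers were 4 higher and 7 lower (median -0.019), with the lysolipid transporter gene Mfsd2a at 0.60, the cholesterol exporter gene Abca1 at -0.46 and Npc2 at -0.012.

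The regulators of the family gave no call either. Pparg, which drives Fabp4, Cd36 and Slc27a1, was at 11.05, 10.97 and 10.95 on exposed and 10.99 and 10.96 on control arrays, a difference of 0.020 (-0.27 to 0.31). Of 13 measured regulators 6 were higher and 7 lower (median -0.026). The coactivator gene Ncoa2 was at 8.30, 8.07 and 8.15 against 8.57 and 8.50, a difference of -0.36 (-0.68 to -0.038, adjusted p 0.93 by limma), and Nr1h3, which encodes a liver X receptor, differed by -0.31 with exposed array 1 lowest at 5.17.

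**Figure D5:**
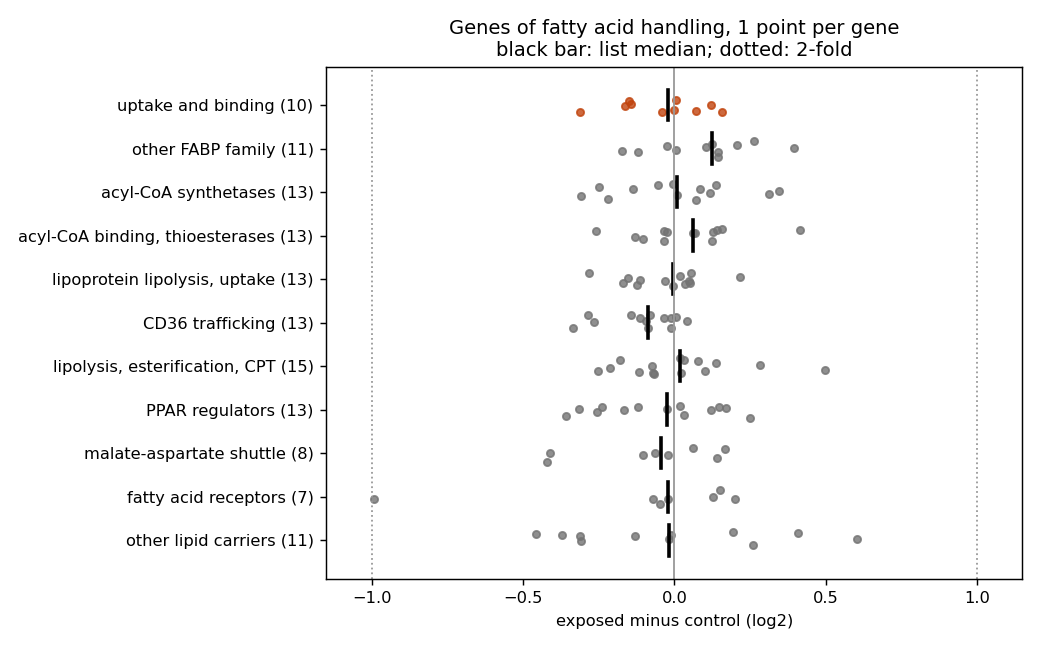
Exposed minus control differences on the log2 scale (horizontal axis), 1 point per measured gene, for the 10 uptake and binding genes (top, coloured) and 10 further lists of fatty acid handling (number of genes in brackets), with list medians as black bars and dotted lines at 2-fold. The list medians run from -0.088 to 0.12, and Gpr84 at -0.99 is the point farthest from 0.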

How the data were processed

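RNA of 5 samples was hybridised to 1 Clariom S array each, from 50 ng of RNA per the labels. The authors deposited log2 values for each probe set, which per the submitters' processing notes come from RMA run in Partek; RMA corrects background, equalises the arrays' distributions and summarises probes. Tool versions and the build behind the annotation are not given in the sources used here. Values ran from 1.20 to 13.2, and 27.2% of probe sets held an equal value on at least 2 arrays, where the table resolves no difference. Gene symbols came from the platform annotation. The 10 genes and all lists were chosen with earlier results of these data known. The 2 groups were compared in 1 moderated linear model per probe set, using limma 3.58.1 (R 4.3.3), over all 22206 probe sets without a filter. The model held group alone, was two-sided and had 3 residual and 3.17 prior degrees of freedom; the script was first tested on simulated data. Calls needed an adjusted p (Benjamini-Hochberg) under 0.05, and every p comes from that fit or a named alternative. Other named genes were the 2 of each list with the largest difference and the 1 of highest level, with Adipoq and Pparg, the 3 nearest profiles, and genes given for context (Pmp2, Fabp9, Slc27a5, Adgre1, Cd14, Lyz2, Cdh5, Flt1, Dlk1, Mb), chosen after their values were seen. Group columns were mapped by sample name. Alternatives were each array left out, a filter on dim probe sets, a block for replicate number, other scalings, array weights and other priors. Every member had 1 probe set, so the planned choice of another could not be run. Promoter sequences are RefSeq's (GRCm38.p6). Protein sequences were not used here.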

Additional observations from a re-analysis of the deposited data

How the results depend on the processing

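Under all 12 alternatives, 0 probe sets, 0 members and 0 genes of the other lists were called. Fits that leave out 1 control take its partner's spread from the exposed arrays. Of the 10 members 3 (Slc27a1, Slc27a6 and Got2) kept the sign of their difference throughout and 7 did not, and of 31 other genes named with the lists 21 did; the cause was not tested. The members' median difference, -0.020, ran from -0.084 to 0.014 with 1 array left out, and it was -0.084 with replicate number as a block. The labels give the numbers 1 and 2 to both groups without saying that they mark shared cultures. Deviations of same-numbered arrays correlated at -0.014 and -0.032, and other pairings were not checked, so the block is an alternative only. Exposed array 3 has no partner in it, and the values equal those without that array: Fabp3 0.15, Fabp5 -0.015, Slc27a4 -0.25, Acsl4 0.039, Mdh2 0.077 and Npc2 0.091, all with signs opposite to the fit without it. With arrays centred on their medians Fabp4 was at -0.018 and Fabp5 at -0.013. With a further quantile normalization Fabp4 was at -0.0031, Acsl4 at 0.024 and Cav2 at 0.017. With array weights Fabp3 was at 0.075, Fabp5 at -0.00027, Slc27a4 at -0.014, Acsl4 at 0.031 and Cav2 at 0.015.

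With 1 array left out, differences that changed sign ran from -0.38 to 0.30 for Fabp3, -0.036 to 0.036 for Fabp4, -0.015 to 0.022 for Fabp5, -0.31 to 0.027 for Cd36, -0.41 to 0.11 for Slc27a2, -0.033 to 0.27 for Slc27a3 and -0.25 to 0.24 for Slc27a4. Outside the members they ran from -0.14 to 0.77 for Acsm3, -0.073 to 0.039 for Acsl4, -0.070 to 0.061 for Lpl, -0.060 to 0.085 for Cav2, -0.60 to 0.00045 for Nr1h3, -0.0085 to 0.039 for Pparg, -0.095 to 0.077 for Mdh2, -0.067 to 0.37 for Ffar2, -0.12 to 0.091 for Npc2 and -0.094 to 0.075 for Adipoq. Probe sets with an unadjusted p under 0.05, 776 in all, numbered 362 among the brighter 11103 alone and between 760 and 1378 after dropping an array; 1378 was without control array 1. The 4 dim members (Fabp3, Slc27a2, Slc27a3 and Slc27a6) drop out under that filter, and for them the values limit differences in array signal more than in RNA.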
